A study of Mus musculus with 6 samples.

Results

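The fatty acid binding proteins measured here were 5 genes, Fabp1, Fabp2, Fabp4, Fabp5 and Fabp7, which were taken by name, through the GENCODE annotation of GRCm39, from the 55357 genes of a liver RNA-seq count table. All 5 were among the 14433 genes that passed the filter on low counts and were compared between groups. The family was chosen by the values of this same comparison: among the 254 genes called lower with esculetin, Fabp5 had the smallest p-value. The contrasts of the 5 members are therefore given as a description, without a test, and they support no statement about the family.

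Livers came from male wild-type C57BL/6J mice aged 8 to 9 weeks that received Tween-80 (2.5%, the vehicle group) or esculetin, a coumarin derivative, by oral gavage for 7 days. Both groups ate a control diet with 10% of kcal as fat for 4 days and then a high-fat diet (HFD) with 60% of kcal as fat for 3 days, so every library is from an HFD-fed animal and none shows the effect of the diet itself. Each library pooled the livers of 2 mice, and there were 3 libraries and 6 mice per group. The labels disagree on the esculetin dose (180 mg/kg/d in the titles, with 180 also in the names of the count columns, and 90 mg/kg/d under treatment), so no dose is attached to the esculetin group.

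Fatty acid binding proteins are small cytosolic proteins that hold a long-chain fatty acid or a related lipid inside a barrel of beta strands and carry it through the aqueous cytosol towards membranes, mitochondria, lipid droplets or the nucleus. Fabp1 is the liver form and one of the abundant proteins of the hepatocyte cytosol, and it hands ligands to the nuclear receptor PPARα. Fabp2 is the intestinal form of the absorptive enterocyte, Fabp4 is the adipocyte and macrophage form, Fabp5 is the epidermal form that is also found in macrophages, endothelium and fat, and Fabp7 is the brain form.

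The total counts were 28825363, 31889710 and 27957713 in the vehicle libraries and 32883985, 34920922 and 33360275 in the esculetin libraries, so every esculetin library was deeper. Levels below are CPM, read counts scaled to a common library size and normalized by TMM, a scaling that sets the bulk of genes equal between libraries, and 3 counts correspond to 0.0865 to 0.109 CPM. Calls required over 1.5-fold change together with p under 0.05, unadjusted, in the quasi-likelihood test of edgeR. By this rule 452 of 14433 genes (3.13%) were called, 198 higher (1.37%) and 254 lower (1.76%), and 6 genes (0.0416%) had a Benjamini-Hochberg adjusted p-value under 0.05. P-values measure only the spread between these libraries. The tissue label was checked against 8 hepatocyte markers, none of which was called although Apoc3 (log2 fold change 0.36) and Serpina1c (0.52) had higher esculetin values without overlap, and whose summed level was 89401 to 92860 CPM in the vehicle and 87079 to 95164 CPM in the esculetin libraries.

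The 5 genes lie at separate places except for Fabp5 and Fabp4. On GRCm39, Fabp5 (ENSMUSG00000027533) occupies chr3:10077602-10081674 on the plus strand and Fabp4 (ENSMUSG00000062515) chr3:10268785-10273737 on the minus strand, 187.1 kb apart. They are the outer and an inner gene of a run of 5 family genes over 288.8 kb, Fabp5, Pmp2, Fabp9, Fabp4 and Fabp12. Fabp2 (ENSMUSG00000023057) is at chr3:122688721-122693155 on the same chromosome, Fabp1 (ENSMUSG00000054422) at chr6:71176809-71182016 and Fabp7 (ENSMUSG00000019874) at chr10:57660956-57664554, all on the plus strand. All 5 are annotated as protein-coding genes.

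The RefSeq promoter table of GRCm38.p6 matched 3 of the 5 members, Fabp1, Fabp2 and Fabp7, and the 250 bases before the start of each are shown. Capitals mark every match, on either strand, to 4 motifs: the TATA box TATAAA, the CCAAT box CCAAT, the nuclear receptor half-site AGGTCA and the C/EBP-type motif TTGCNNAA. The windows are chr6:71199629-71199878 for Fabp1, chr3:122894822-122895071 for Fabp2 and chr10:57784673-57784922 for Fabp7, all on the plus strand of GRCm38.p6.
Fabp1: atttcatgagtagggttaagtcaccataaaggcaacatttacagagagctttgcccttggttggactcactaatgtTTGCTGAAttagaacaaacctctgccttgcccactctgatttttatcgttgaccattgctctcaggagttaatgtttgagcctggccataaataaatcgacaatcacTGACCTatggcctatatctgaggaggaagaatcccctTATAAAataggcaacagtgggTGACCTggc
Fabp2: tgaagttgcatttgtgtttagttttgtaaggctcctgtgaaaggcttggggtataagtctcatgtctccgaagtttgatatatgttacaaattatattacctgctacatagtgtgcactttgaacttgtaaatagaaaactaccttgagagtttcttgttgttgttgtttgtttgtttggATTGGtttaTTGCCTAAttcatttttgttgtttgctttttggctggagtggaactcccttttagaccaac
Fabp7: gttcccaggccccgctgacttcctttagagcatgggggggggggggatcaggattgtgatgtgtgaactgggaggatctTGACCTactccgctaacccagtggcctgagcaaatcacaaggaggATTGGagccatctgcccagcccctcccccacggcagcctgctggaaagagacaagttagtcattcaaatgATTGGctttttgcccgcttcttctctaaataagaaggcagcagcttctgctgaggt

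The Fabp1 window held TATAAA starting 30 bases before the start, AGGTCA on the reverse strand (read as TGACCT) at 67 and 9 bases, and TTGCNNAA at 174 bases. In the Fabp2 window CCAAT stood on the reverse strand (ATTGG) at 70 bases and TTGCNNAA at 61 bases. The Fabp7 window carried CCAAT on the reverse strand at 126 and 56 bases and AGGTCA on the reverse strand at 171 bases. Of 32851 promoter windows of the same length, 12.4% held TATAAA, 33.8% CCAAT, 14.0% AGGTCA and 9.56% TTGCNNAA. No 2 of the motifs share letters in these windows, and a match describes letters only. Fabp4 and Fabp5 were not matched.

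Fabp1 was by far the most abundant member. Its level was 4760.59, 4760.20 and 4746.88 CPM in the vehicle libraries and 4753.96, 4019.83 and 4593.99 CPM in the esculetin libraries, above 99.8% of the genes tested in CPM. The vehicle libraries lay within a very narrow band, and 1 esculetin library, replicate 1, fell inside it while replicates 2 and 3 lay under it. The means were 4755.89 ± 7.81 and 4455.93 ± 386 CPM (SD, n = 3), a log2 fold change of -0.09 (SE 0.086). The gene was not called.

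Fabp2, the enterocyte form, was the member with the second highest count level. It measured 152.7, 136.5 and 121.7 CPM in the vehicle libraries and 119.8, 145.6 and 185.9 CPM in the esculetin libraries. The esculetin libraries spread on both sides of the vehicle libraries, with the lowest and the highest value of all 6. The means were 136.9 ± 15.5 and 150.4 ± 33.3 CPM (SD, n = 3), a log2 fold change of 0.14 (SE 0.15), and the gene was not called. Enterocyte markers were near the floor in the same libraries: Sis, Lct, Cdx2 and Alpi, which mark the intestinal epithelium, had 0 counts in every library, which allows up to 0.109 CPM, and 2 of 8 markers were tested. The summed enterocyte list, nearly all of it the apolipoprotein gene Apoa4, ran at 62.3 to 66.0 CPM in the vehicle libraries and at 37.7, 83.0 and 81.0 CPM in the esculetin libraries, with its lowest value in esculetin replicate 1, as for Fabp2. Its part in the Fabp2 values was not tested.

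Fabp4, the adipocyte form, was low in these livers. The vehicle libraries held 8.14, 11.2 and 13.0 CPM and the esculetin libraries 10.1, 10.2 and 12.3 CPM. The esculetin values all lay inside the vehicle range. The means were 10.8 ± 2.45 and 10.9 ± 1.27 CPM (SD, n = 3), a log2 fold change of 0.01 (SE 0.17), and the gene was not called. The defining adipocyte markers were at or near 0: Lep and Retn had no count in any library, while Adipoq and Plin1 had none in the vehicle libraries and at most 0.119 and 0.144 CPM in an esculetin library. Of the 8 adipocyte markers 4 were tested, and Cfd, the secreted protease adipsin, was called higher at 0 to 0.613 CPM with vehicle and 0.692 to 1.12 CPM with esculetin. That call was lost without vehicle replicate 2 (log2 fold change 1.61), vehicle replicate 3 (1.17), esculetin replicate 1 (1.60) or esculetin replicate 3 (1.63), and with all libraries thinned to the smallest total (1.60). The other 3 tested markers were not called: Lipe, the hormone-sensitive lipase, had a log2 fold change of -0.01, the lipid droplet gene Cidec one of -0.47 and the nuclear receptor gene Pparg one of 0.30. The list summed to 10.9 to 14.9 CPM with vehicle and 11.6 to 16.3 CPM with esculetin, ranges that overlap.

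Fabp7, the brain form, was the lowest member by count. Its libraries held 3.95, 3.93 and 3.94 CPM with vehicle and 3.79, 3.63 and 4.06 CPM with esculetin, from raw counts of 116, 128 and 108 and of 122, 126 and 136. The esculetin values surrounded the vehicle values. The means were 3.94 ± 0.0105 and 3.83 ± 0.217 CPM (SD, n = 3), a log2 fold change of -0.04 (SE 0.16), and the gene was not called. At such counts the counting error alone is wider than the vehicle SD, so that SD does not measure how constant Fabp7 is.

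Fabp5, the epidermal and macrophage form, was the 1 member of 5 that was called, and it was lower with esculetin, where 1.76% of all genes tested were called lower. Its level was 61.0, 71.3 and 105.0 CPM in the vehicle libraries and 37.9, 31.4 and 31.7 CPM in the esculetin libraries, from raw counts of 1792, 2324 and 2880 and of 1218, 1088 and 1063. Every esculetin library lay below every vehicle library. The vehicle libraries spread widely and the esculetin libraries lay close together. The means were 79.1 ± 23.0 and 33.7 ± 3.65 CPM (SD, n = 3), a log2 fold change of -1.23 (SE 0.18), or 2.35-fold lower. The value that chose the family was an unadjusted p of 4.80e-05 in edgeR's quasi-likelihood test, rank 11 among all genes tested, with a Benjamini-Hochberg adjusted p of 0.0629 that misses 0.05. Fabp5 was the 1 member of 5 whose groups did not overlap, while groups did not overlap for 17.4% of all genes tested (9.2% higher and 8.24% lower). In bulk liver, fewer cells of a type that makes Fabp5 and less Fabp5 RNA per cell cannot be told apart.

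**Figure D1:**
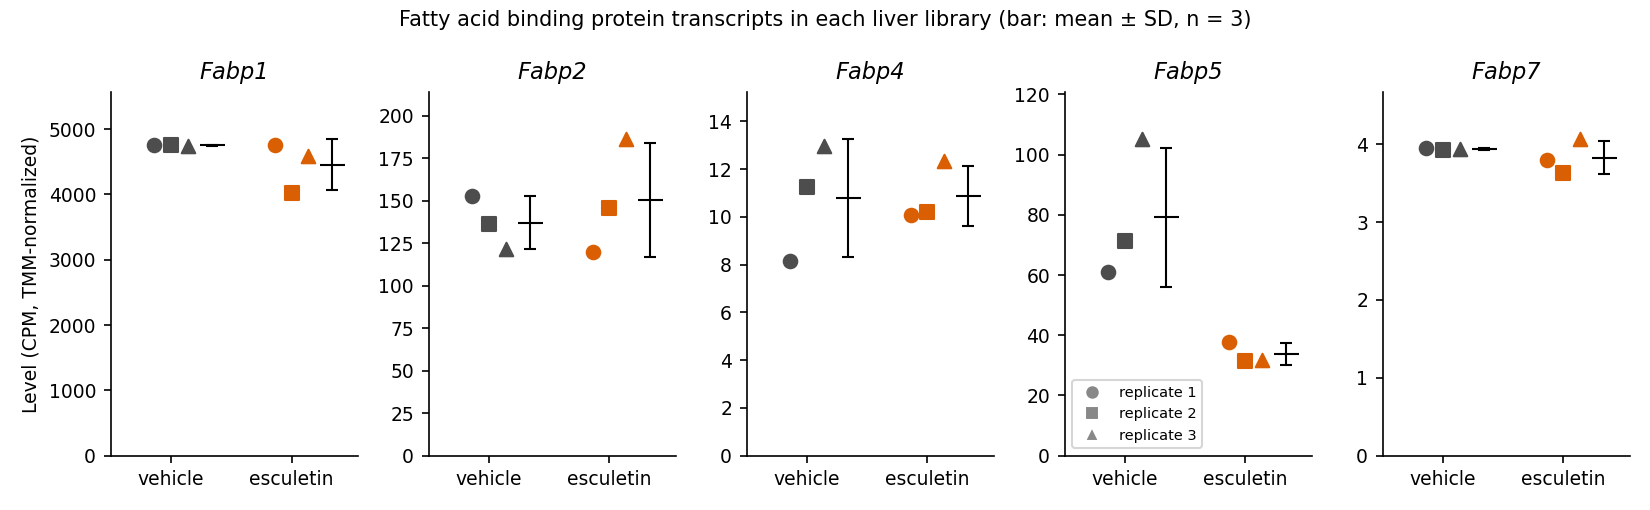
Level of each member in CPM (linear axes from 0, each panel with its own scale) in the 3 vehicle libraries (grey) and the 3 esculetin libraries (orange), with marker shapes for replicate numbers and a bar for the mean ± SD. The esculetin libraries of Fabp5 sit at 31.4 to 37.9 CPM, under the lowest vehicle library at 61.0 CPM, and the groups of the other 4 members overlap.

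Vehicle replicate 3 held the highest Fabp5 level, and without it the log2 fold change of Fabp5 was -0.97. Without vehicle replicate 1, which held the lowest vehicle level, it was -1.39. Over 15 alternative fits Fabp5 stayed lower and called in 15, whereas its adjusted p ran from 5.31e-16 in edgeR with no filter on low counts to 0.310 without vehicle replicate 2. The fits reuse the libraries that chose Fabp5, so they describe its contrast and add no evidence for it. The ranges of the log2 fold change over the same fits were -0.14 to -0.024 for Fabp1, -0.044 to 0.28 for Fabp2, -0.15 to 0.17 for Fabp4 and -0.083 to -0.0034 for Fabp7, and none of these 4 members was called in any fit. The median log2 fold change of the 5 members was -0.04, beside -0.01 for all genes tested.

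**Figure D2:**
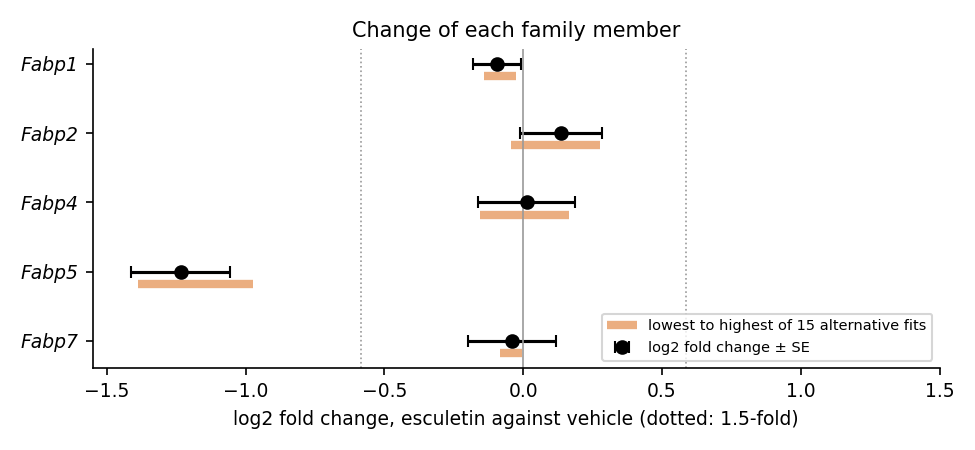
Log2 fold change of each member, esculetin against vehicle, with its SE (black) and the lowest and highest value of 15 alternative fits (orange bars), with dotted lines at 1.5-fold. Fabp5 lies at -1.23 and keeps between -1.39 and -0.97, and the other 4 members stay between -0.15 and 0.28.

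The make-up of the family's counts was set by Fabp1, which took 95.1% to 96.5% of the summed CPM of the 5 members in each library. The sum was 4983 to 4991 CPM in the vehicle libraries and 4211 to 4925 CPM in the esculetin libraries. Fabp5 made up 1.22%, 1.43% and 2.10% of the sum with vehicle and 0.769%, 0.745% and 0.657% with esculetin. Set against its neighbour Fabp4, Fabp5 held 7.50, 6.35 and 8.09 counts per Fabp4 count in the vehicle libraries and 3.76, 3.07 and 2.57 in the esculetin libraries, a ratio within each library that no scaling between libraries can alter. Against Fabp2 the ratio was 0.400, 0.523 and 0.863 with vehicle and 0.316, 0.215 and 0.171 with esculetin. Both ratios rest on the contrast that chose the family and are a description.

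Levels of different genes can be compared only per length, as TPM, counts divided by gene length and scaled to the same sum in every library. With all annotated exons of a gene merged, the vehicle levels were 23754.5 ± 790 TPM for Fabp1, 479 ± 67.8 for Fabp2, 72.2 ± 18.5 for Fabp5, 10.4 ± 0.334 for Fabp7 and 7.30 ± 1.48 for Fabp4 (SD, n = 3). The esculetin levels were 21852.7 ± 2035 TPM for Fabp1, 517 ± 130 for Fabp2, 30.3 ± 2.75 for Fabp5, 9.90 ± 0.821 for Fabp7 and 7.27 ± 1.07 for Fabp4. Neighbours in this order had no overlapping libraries within either group, so Fabp1 stood 49.6 times over Fabp2 with vehicle and 42.2 times with esculetin.

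The distance between Fabp2 and Fabp5 depended on the group and on the length used. With merged exons, which give Fabp5 a length of 3667 bases, the Fabp2 level per length was 6.63 times that of Fabp5 in the vehicle group and 17.1 times in the esculetin group. With the canonical transcript of 993 bases, a length added after the data were seen, it was 1.80 times and 4.62 times, and the vehicle level of Fabp5 became 163 ± 41.9 TPM. Fabp5 stood 9.89 times over Fabp4 with vehicle and 4.17 times with esculetin for merged exons.

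The order of Fabp4 and Fabp7 is not settled by these files. Merged exons give Fabp4 4953 bases, and its level was then 0.704 times that of Fabp7 with vehicle and 0.734 times with esculetin. The canonical transcript of Fabp4 has 1360 bases, and the ratio turned to 1.89 and 1.97.

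**Figure D3:**
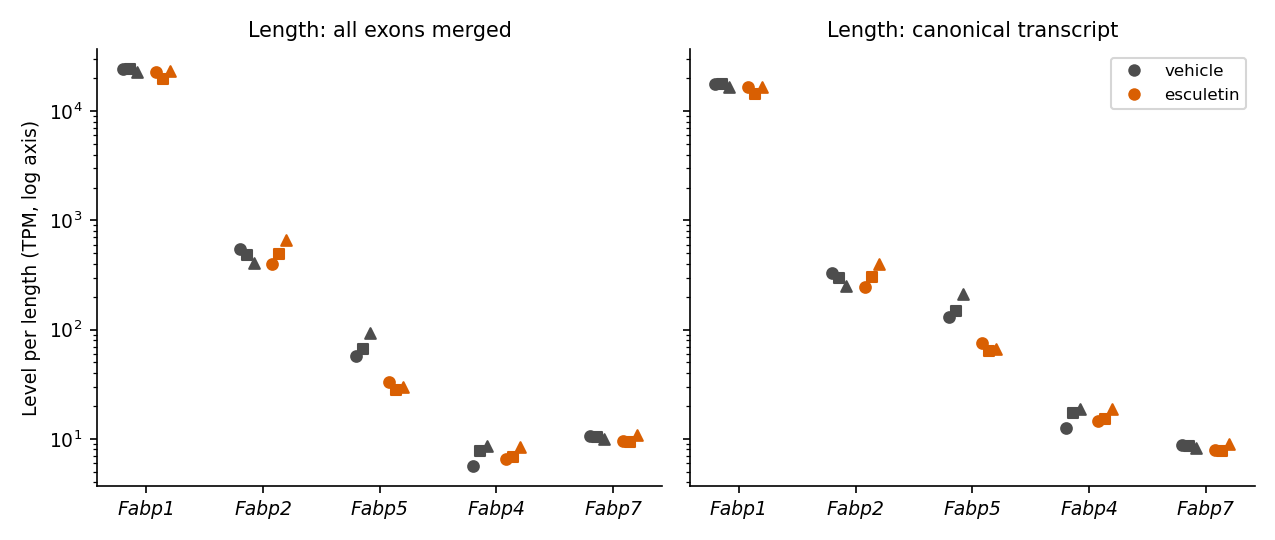
Level of each member per length in TPM (log axis) in vehicle (grey) and esculetin (orange) libraries, with merged exon length on the left and canonical transcript length on the right, and with marker shapes for replicate numbers as in the plot of CPM. Fabp1, Fabp2 and Fabp5 keep their order in both panels, and Fabp4 lies under Fabp7 on the left (7.30 against 10.4 TPM with vehicle) and over it on the right (16.2 against 8.58 TPM).

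Most other genes of the intracellular lipid-binding family had few or no counts in these livers. Of 11 other family genes listed, 10 were found in the table and 6 had 0 counts in every library. Fabp6, the ileal bile acid binding form, and Fabp9 and Pmp2, which lie between Fabp5 and Fabp4, had 0 counts in all 6 libraries. Fabp3, the heart form, had 19 counts in the 6 libraries together, and Fabp12 had 17.

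Reads shared with near-identical genes could touch the Fabp5 count. A BLAST search of the annotated transcripts found 5 Fabp5 pseudogenes with at least 90% identity over at least 150 bases, the closest at 99.4%. Of these, 2 held counts, 112 in all, which equals 1.08% of the 10365 counts of Fabp5. Per library the pseudogenes held 14, 32 and 23 counts with vehicle and 14, 13 and 16 with esculetin. How reads that map to several genes were counted is not given in the sources used here, and neither is the strand setting. Antisense genes overlap Fabp2, Fabp4, Fabp5 and Fabp7 in the annotation. Of these, 4933405D12Rik, over Fabp2, held 100 counts in all, and the others were not analysed here. Fabp1 and Fabp7 had no such near-identical copy.

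Fabp5 is known from macrophages as well as from epithelium, so its level was set beside markers of the cell types that a piece of liver holds. The 12 markers of Kupffer cells and macrophages, led by the Kupffer cell lectin Clec4f, were all tested and none was called. Their sum was 410, 418 and 551 CPM in the vehicle libraries and 429, 436 and 442 CPM in the esculetin libraries. The groups overlapped, and the highest sum was in vehicle replicate 3, the library that also held the highest Fabp5 level. Of these markers 9 had a log2 fold change under 0 and 3 had one above 0, C1qa (0.15), C1qb (0.035) and Marco (0.030). The groups of Cd68, Timd4 and Csf1r did not overlap, with lower esculetin values, as for 8.24% of all genes tested. Cd68, a macrophage lysosomal protein, had a log2 fold change of -0.37 (SE 0.14) at an unadjusted p of 0.0225 and an adjusted p of 0.337 (edgeR's quasi-likelihood test, Benjamini-Hochberg), under the fold needed for a call. Per unit of the marker sum, Fabp5 amounted to 14.9%, 17.1% and 19.1% with vehicle and 8.83%, 7.19% and 7.18% with esculetin. This was not particular to macrophage markers. Fabp5 ratios to the hepatocyte, monocyte and neutrophil, endothelial, adipocyte, cholangiocyte and stellate cell sums were also lower with esculetin without overlap. Only the ratio to the enterocyte sum overlapped. These ratios carry the Fabp5 contrast that chose the family, so they are a description of the libraries and no further evidence of a difference.

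**Figure D4:**
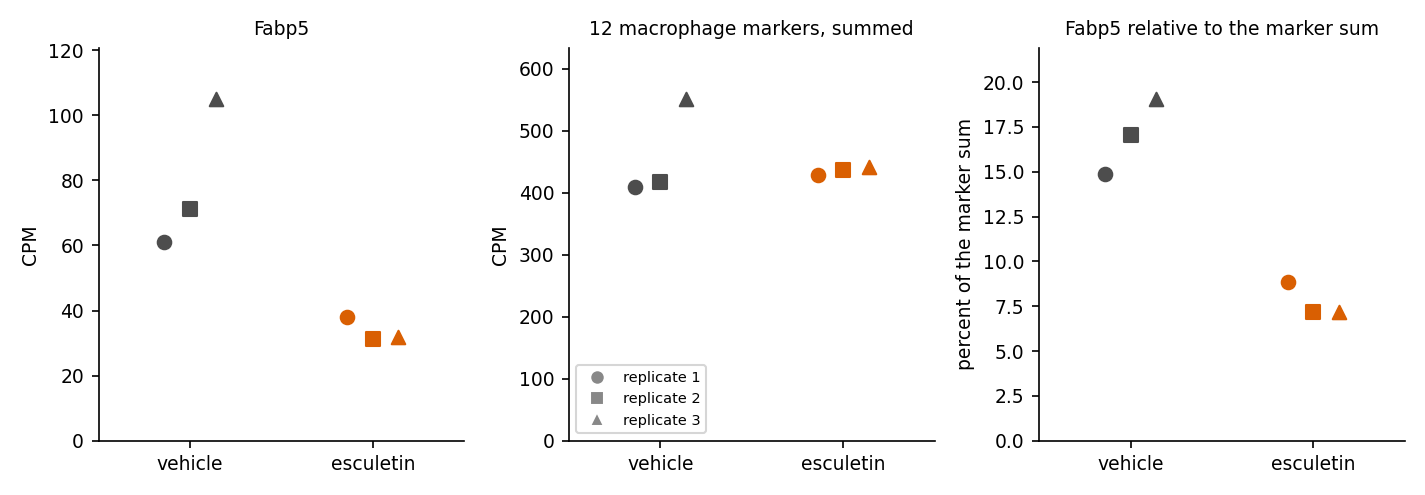
Fabp5 in CPM, the sum of 12 macrophage markers in CPM and Fabp5 as a percent of that sum, per library (grey for vehicle, orange for esculetin, shapes for replicate numbers, axes from 0). The marker sums of the groups overlap (410 to 551 and 429 to 442 CPM), and the ratio lies at 14.9% to 19.1% with vehicle and 7.18% to 8.83% with esculetin.

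The sum of 10 endothelial markers, led by the growth factor receptor Kdr, was 218 to 255 CPM with vehicle and 222 to 253 CPM with esculetin and none of the 10 was called. Of 8 stellate cell and fibroblast markers, led by the matrix protein gene Dcn, 1 was called, Des, a muscle-type filament, which was higher (log2 fold change 0.69). That call was lost without esculetin replicate 2 (0.57). Of the 8 markers 5 had log2 fold changes under 0, among them the collagen genes Col1a1 (-0.37) and Col3a1 (-0.28) and the growth factor receptor gene Pdgfrb (-0.24, groups not overlapping), with a median of -0.11. Lum, a matrix proteoglycan gene, had one of 0.23, with higher esculetin values that did not overlap, and was not called. The list summed to 332 to 401 CPM with vehicle and 305 to 397 CPM with esculetin. Of 8 monocyte and neutrophil markers, led by the chemokine receptor gene Ccr2, 5 were tested, with sums of 5.89 to 7.44 and 5.19 to 9.45 CPM. The neutrophil gene S100a9 was called higher (log2 fold change 0.99), but not without vehicle replicate 1 (0.86), vehicle replicate 2 (0.78), esculetin replicate 1 (0.58) or esculetin replicate 3 (1.10), nor in limma-voom (0.98). Csf3r, the receptor for the neutrophil growth factor G-CSF, had a log2 fold change of -0.39 with groups that did not overlap, and Ly6c2, a monocyte surface gene, one of -0.26. Ccr2 stood at 0.35 and S100a8, the partner of S100a9, at 0.29. None of these 4 was called, and 3 of the 5 tested markers were above 0, with a median of 0.29. Ly6g and Mpo, which define neutrophils and their precursors, had 0 counts in every library. Spp1, the osteopontin gene, led the 6 cholangiocyte markers and was called lower. It held 34.7, 57.7 and 75.5 CPM with vehicle and 39.1, 23.7 and 37.3 CPM with esculetin, a log2 fold change of -0.75 that was no longer called without vehicle replicate 3 (-0.47) or esculetin replicate 2 (-0.55), and its highest value, too, was in vehicle replicate 3. The other 4 cholangiocyte markers tested, Krt19, Krt7, Epcam and Sox9, had log2 fold changes above 0. The part of these cell types in the Fabp5 difference was not tested.

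The genes whose pattern over the 6 libraries was nearest to that of Fabp5, among 12173 genes with at least 1 CPM on average, were Hcrtr2, Lpar2 and Serpina1e. Likeness was the root mean square difference of log2 CPM after centring each gene, and it was 0.135, 0.224 and 0.248. Hcrtr2, an orexin receptor gene, held 1.91, 2.18 and 2.70 CPM with vehicle and 1.24, 1.01 and 0.866 CPM with esculetin. Lpar2, a receptor for lysophosphatidic acid, held 1.36, 1.38 and 2.12 CPM and then 0.777, 0.951 and 0.717 CPM. Serpina1e, one of the alpha-1-antitrypsin copies of the mouse, held 6790.71, 11519 and 12817.7 CPM with vehicle and 6306, 4473.28 and 3409.53 CPM with esculetin. It belongs to a family of near-identical genes, so its counts are uncertain, and its relative Serpina1c among the hepatocyte markers had a log2 fold change of 0.52. The log2 fold changes of the 3 genes were -1.12, -0.98 and -1.13, but the genes were picked for a pattern that holds this contrast, and the values are a description.

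The steps around the binding proteins were described with gene lists. Of these lists 5 genes were called higher, 3 of them C/EBP factors, and 1 was called lower. Among all genes tested 1.37% were called higher and 1.76% lower, and 6993 of 14433 had a log2 fold change above 0. For fatty acid uptake, 11 of 12 genes were tested and none was called, with 9 log2 fold changes above 0 and a median of 0.10. Cd36, the scavenger receptor that takes up long-chain fatty acids and oxidized lipoproteins, held 41.3 ± 4.16 CPM with vehicle and 44.4 ± 3.52 CPM with esculetin (SD, n = 3), a log2 fold change of 0.11 (SE 0.098), and was not called. Lpl, the lipase that releases fatty acids from circulating triglyceride, held 39.4 ± 6.07 and 27.8 ± 5.14 CPM, a log2 fold change of -0.50 (SE 0.15). Its groups did not overlap but the fold stayed under 1.5, and it was called without esculetin replicate 3 (-0.64). Lipc, the hepatic lipase, had a log2 fold change of 0.25 and Slc27a5, a fatty acid and bile acid activating transporter, one of 0.18. Vldlr, a lipoprotein receptor, had one of 0.92 from levels of 0.729 to 3.61 CPM, and it was called with all 6 libraries in DESeq2 (0.92), in limma-voom (1.04) and without the filter on low counts (0.93), as well as without vehicle replicate 1 (1.64) or esculetin replicate 1 (1.16).

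Of 20 genes for acyl-CoA synthesis, binding and hydrolysis, 19 were tested and 1 was called. Acsm2, a medium-chain acyl-CoA synthetase, fell from 2.34 ± 0.965 CPM with vehicle to 0.885 ± 0.175 CPM with esculetin (SD, n = 3), a log2 fold change of -1.40 (SE 0.37), with an unadjusted p of 0.00370 and an adjusted p of 0.206 (edgeR, Benjamini-Hochberg). It was called in 15 of 15 alternative fits. Acot13 and Acot12, acyl-CoA thioesterases, and Acsm1, a second medium-chain synthetase, had log2 fold changes of 0.26, 0.18 and 0.22 and were not called. The median of the list was 0.09.

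The list of fatty acid receptors and PPAR target genes held the gene with the largest called rise of these lists, Angptl4. All 28 genes were tested, 2 were called higher and none lower, 23 had log2 fold changes above 0 and the median was 0.14. Of all 14433 genes tested, 1.37% were called higher and 1.76% lower, 6993 had log2 fold changes above 0 and the median was -0.01. Angptl4, a secreted inhibitor of lipoprotein lipase that PPARs induce, rose from 60.0, 62.5 and 71.1 CPM with vehicle to 117, 96.7 and 158 CPM with esculetin, a log2 fold change of 0.94 (SE 0.16) with an unadjusted p of 0.000155 and an adjusted p of 0.114 (edgeR, Benjamini-Hochberg). The groups did not overlap, and the call held in 15 of 15 alternative fits. Vnn1, the pantetheinase vanin, rose from 25.1 ± 7.81 to 45.7 ± 14.6 CPM (SD, n = 3), a log2 fold change of 0.86 (SE 0.25), but was not called without esculetin replicate 3 (0.57). Acaa1a, a peroxisomal thiolase, had a log2 fold change of 0.30 (SE 0.067) with groups that did not overlap, and Eci2, a peroxisomal enoyl-CoA isomerase, one of 0.31, both under the fold needed. Ppara itself, the receptor that Fabp1 supplies with ligands, held 101 ± 13.3 and 98.4 ± 17.6 CPM, a log2 fold change of -0.04, and was not called.

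For fatty acid and triglyceride synthesis, 21 of 22 genes were tested and none was called, with a median log2 fold change of -0.03. Srebf1, which drives the synthesis genes, held 242 ± 33.0 and 208 ± 64.6 CPM (SD, n = 3), a log2 fold change of -0.22. Gpam, the acyltransferase that begins glycerolipid synthesis, had one of -0.37 and the carbohydrate-response factor Mlxipl one of -0.17. Lpin1, a phosphatidate phosphatase, held 143, 163 and 435 CPM with vehicle and 350, 402 and 437 CPM with esculetin, a log2 fold change of 0.68 that was not called. It was called with all 6 libraries when the replicate number was a block (0.87), in limma-voom (0.87) and without the filter on low counts (0.69), and also without vehicle replicate 3 (1.37). Pnpla3, a lipid droplet acylhydrolase, at -1.20 from levels of 0.109 to 1.77 CPM, was called without the filter (-1.18) and without vehicle replicate 3 (-1.71).

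For triglyceride export and storage, 14 of 15 genes were tested and none was called, with a median of -0.07. Plin5 and Plin4, which coat lipid droplets, had log2 fold changes of 0.53 and 0.52 with groups that did not overlap. Both stood close to the fold needed: Plin5 was called without vehicle replicate 3 (0.61) or esculetin replicate 3 (0.65), and Plin4 without vehicle replicate 1 (0.70) or esculetin replicate 2 (0.61). Pnpla2, the adipose triglyceride lipase, had one of 0.26 and its activator Abhd5 one of -0.19.

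Clock genes were listed because liver lipid genes follow the time of day. Of 18 tested genes none was called, and the median was -0.06. Nr1d1, the nuclear receptor Rev-erbα, held 29.5 ± 6.76 and 30.5 ± 12.6 CPM (SD, n = 3), a log2 fold change of 0.05. Clock and Per3 had log2 fold changes of -0.25 and -0.29, Nfil3 one of -0.30 and Ciart one of 0.39, which became a call without esculetin replicate 2 (0.59).

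Of the 6 C/EBP factors, transcription factors at the centre of the study, all were tested, 3 were called higher and none lower, and the median log2 fold change was 0.44. Among all genes tested 1.37% were called higher and 1.76% lower, with a median of -0.01. The list follows the study's theme, so its direction is not independent evidence. Cebpb rose from 24.9, 35.6 and 30.2 CPM with vehicle to 53.7, 43.4 and 40.3 CPM with esculetin, a log2 fold change of 0.60 (SE 0.14), with an unadjusted p of 0.00211 and an adjusted p of 0.175 (edgeR, Benjamini-Hochberg). The groups did not overlap. The call was lost, with a fold under 1.5, with total counts as the scaling (0.57), without vehicle replicate 1 (0.47) and without esculetin replicate 1 (0.47). Cebpe rose from 2.73 to 4.44 CPM on average (log2 fold change 0.69), and this call was lost without vehicle replicate 1 (0.45), esculetin replicate 1 (0.63) or esculetin replicate 3 (0.67). Cebpd rose from 3.32 to 5.10 CPM (0.62) with groups that overlapped, and its call was lost in limma-voom (0.57), with the replicate number as a block (0.57) and without vehicle replicate 1 (0.51), vehicle replicate 2 (0.61) or esculetin replicate 1 (0.30). Ddit3, a stress-induced member, had a log2 fold change of 0.28 and was not called.

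**Figure D5:**
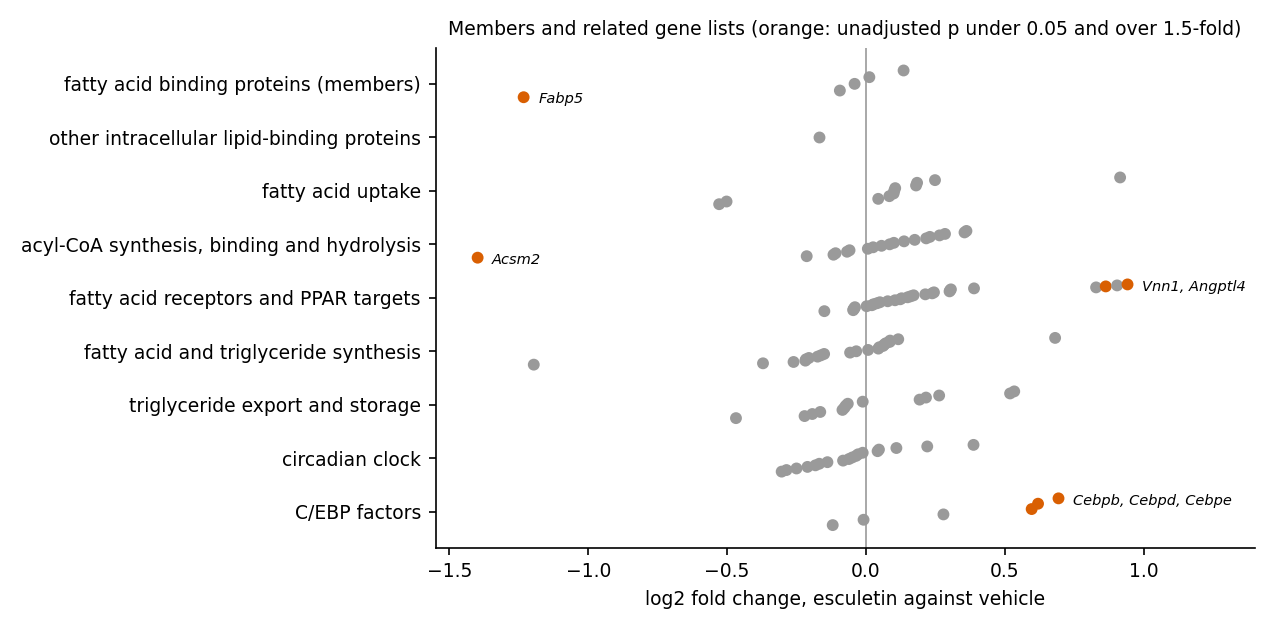
Log2 fold changes, esculetin against vehicle, of the 5 members and of the tested genes of 8 related lists, with 1 point per gene and called genes in orange. Fabp5 (-1.23) and Acsm2 (-1.40) stand on the lower side, and Angptl4, Vnn1, Cebpb, Cebpd and Cebpe are the called genes on the higher side (0.60 to 0.94).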

How the data were processed

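Livers were profiled by RNA-seq (NEBNext Ultra kit, paired-end reads). The authors mapped reads with HISAT2 2.2.1 to GRCm39 (the submitters' processing notes name both GRCm39 and mm10) and counted reads per gene with featureCounts. The authors deposited whole-number counts per gene, not normalized. Annotation release, strandedness and handling of multimapping reads are not given in the sources used here. Between 69.3% and 70.9% of counts from 1 to 20 were even in each library, so mates may have been counted singly, which makes counting noise larger than the counts imply.

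GENCODE M39 held 54749 of 55357 identifiers. Libraries were grouped by their titles, and table columns were matched to titles by group and number. Genes passing filterByExpr (14433) were normalized by TMM and tested by quasi-likelihood in edgeR 4.0.16 (R 4.3.3), without covariates. Calls used the study's thresholds (p under 0.05, taken here as unadjusted, and over 1.5-fold), and the study itself used limma. Adjusted p-values are Benjamini-Hochberg values over all genes tested. Standard errors are log2 fold changes over the root of the F statistic. The test was checked on simulated data. Depth is given as 3 counts (0.0865 to 0.109 CPM after TMM), which covers counting error only. TPM was computed from counts and exon lengths. Copies were searched with BLAST 2.17.0. Replicates of a group differed by at least 18.4 in chi-square per gene, so none was a repeat deposit.

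Members and gene lists were chosen with earlier results of these data known. Named genes were every member, Cd36, Ppara, Srebf1, Nr1d1, up to 4 genes with the smallest p-value of each pathway list, the 3 genes nearest to a called member, and the most abundant gene of each marker list. Marker genes other than that one, family genes that are no member, and antisense genes were added with their values in view. Alternatives were DESeq2 1.42.0, limma-voom (limma 3.58.1), the replicate block, leaving out each library, the longest coding transcript, scaling by total counts or by DESeq2 size factors, and a filter of either none or 10 counts in all libraries. Thinning to the smallest total, counts divided by 2 and canonical transcript length were added after seeing the data. The result of 1 gene of the named lists is not reported here.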

Additional observations from a re-analysis of the deposited data

How the results depend on the processing

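Fabp5 stayed lower and called under all 15 alternatives, with log2 fold changes from -1.39 to -0.97 as libraries were left out, and the other 4 members were called in none. Fabp5 was chosen by its p-value in these same libraries, so its staying called is a description and no further evidence. With 3 libraries per group and a biological coefficient of variation of 14.6%, the adjusted p of Fabp5 lay on either side of 0.05 depending on the setting (edgeR 0.0629, total counts 0.0467, limma-voom 0.0877, DESeq2 2.03e-09). Replicate numbers did not pair the libraries: deviations of same-numbered libraries correlated at -0.07, -0.01 and 0.0027, and with the number as a block Fabp5 had a log2 fold change of -1.20 (adjusted p 0.0906, edgeR) and 399 genes were called. Without the filter on low counts 776 genes were called, 361 higher and 415 lower, with 477 under an adjusted p of 0.05, and 9 pathway genes were called higher and 2 lower. Genes under an adjusted p of 0.05 numbered 6, against 193 in DESeq2, 15 with the block and 2 (without vehicle replicate 2) to 45 (without vehicle replicate 1) as libraries were left out. The cause was not tested. With a library left out, 411 to 588 genes were called, and pathway genes called higher ran from 3 (without esculetin replicate 1) to 11 (without vehicle replicate 1) and those called lower from 1 to 3 (without esculetin replicate 3). Length moved the levels by its construction: with the longest coding and the canonical transcript, Fabp1 stood 55.9 and 59.3 times over Fabp2 with vehicle, Fabp2 stood 1.80 times over Fabp5 with vehicle under both, and 4.64 and 4.62 times with esculetin. Fabp4 to Fabp7 turned to 1.89 under both with vehicle, and to 1.97 under both with esculetin.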
